A study of Mus musculus with 2 samples.

Results

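Genomic DNA from the paraventricular nucleus (PVH) of the mouse hypothalamus was set against genomic DNA from the arcuate nucleus (ARH), and the fragments described here are those with the higher PVH signal on both arrays. They were chosen on the measured ratio: an autosomal fragment was kept where its mean log2 ratio of PVH over ARH was at least 0.5 on replicate 1 and on replicate 2. Of 21910 autosomal fragments tested, 237 met this rule. PVH and ARH pools each held 7 dissected pieces from C57BL/6 mice of mixed sex at postnatal day 10, and each of 2 arrays, given in the labels as biological replicates, carried a PVH product and an ARH product with the dyes swapped between arrays. PVH was labelled with Cy5 on replicate 1 and with Cy3 on replicate 2. For the second nucleus, the series title and a tissue tag name the ventromedial nucleus (VMH), whereas sample names and the design text name ARH, which is used here. A nucleus cannot be recognised from DNA on these arrays, so neither label was checked against markers. A dissected piece holds many cell types, and a shift in their mixture and a change of methylation within a cell type cannot be told apart.

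The assay reads methylation at the sequence CCCGGG. SmaI, which leaves blunt ends, is blocked by methylation of the CpG in this site and so cuts unmethylated copies. XmaI then cuts the remaining, methylated sites and leaves overhanging ends to which adaptors are joined. PCR therefore copies stretches of DNA that are methylated at both of their ends, and a bright fragment is read as one with methylated ends in many of the cells. CpG methylation in the brain differs between cell types and regions and is still being set in the first weeks after birth. The PVH holds neurons that control stress hormones, fluid balance and appetite, and the ARH holds neurons that sense nutrients and hormones from the blood. No gene name accompanied the fragments, and the gene and promoter tables at hand were of another genome build, so the fragments are named by their positions. For the same reason no sequence is printed. Positions are those of the deposited fragment table, into which the probes fall by their mm8 positions.

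The selection is a description and was not tested. The 237 fragments are 1.08% of those tested, beside 501 (2.29%) at -0.5 or below on both arrays. Opposite directions at the same size were taken by 175 fragments that were higher on replicate 1 and lower on replicate 2 (0.799%) and by 178 with the reverse pattern (0.812%). These opposite pairs give the number of fragments that reached this size without a shared direction, and together they outnumbered the 237 members. Over all 21910 fragments, the ratios of the 2 arrays were only weakly related (r = 0.12). On a single array, 6.53% of fragments reached 0.5 on replicate 1 and 9.63% on replicate 2. At 2-fold on both arrays the numbers were 25 higher (0.114%), 78 lower (0.356%) and 4 opposite (0.0183%). Opposite pairs were thus fewer than the higher fragments at 2-fold, though not at 0.5. X and Y fragments were left out by the rule. Their median log2 ratios went opposite ways on the arrays, at -0.34 and 0.32 for 434 X fragments and at 1.18 and -1.84 for 9 Y fragments on replicates 1 and 2. None of them met the rule, and what the sex make-up of the pools contributes to the autosomal ratios was not tested.

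**Figure D1:**
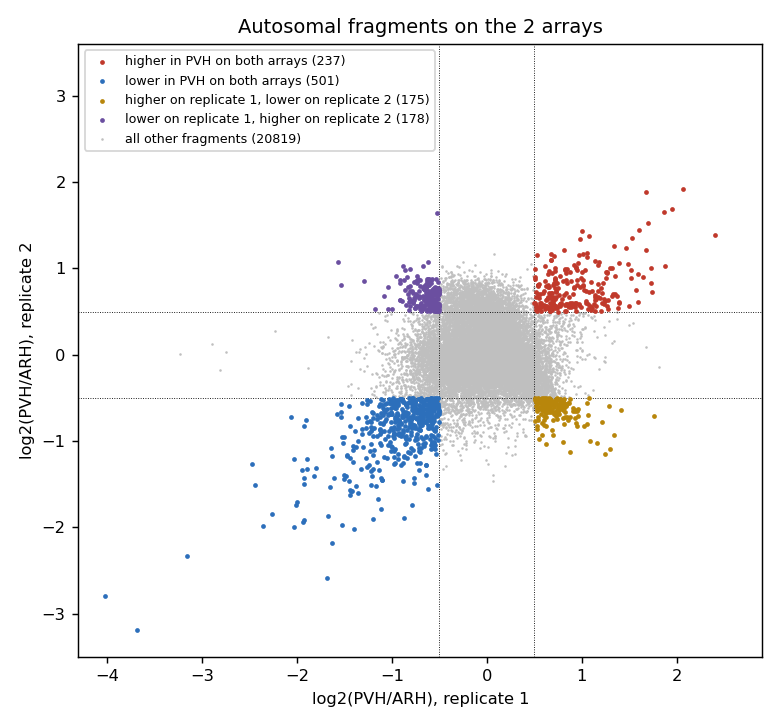
Each point is an autosomal fragment, with its mean log2 ratio of PVH over ARH on replicate 1 (horizontal) and replicate 2 (vertical); dotted lines mark 0.5 and -0.5. The 237 fragments higher in PVH on both arrays lie in the upper right, where the highest reach about 2 on both axes, and the corners of opposite direction hold few fragments beyond 1.

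Within the 237 fragments the fold of PVH over ARH ran from 1.43 to 3.98, with a median of 1.76. The median log2 ratio was 0.85 on replicate 1 and 0.70 on replicate 2, and the ratio was the larger one on replicate 1 in 157 of the 237. The difference between the arrays of a fragment corresponded to a median SD of 0.14 (n = 2 arrays), against 0.23 over all fragments tested, but the rule itself holds this SD down. Just inside the threshold, the fragment on chromosome 6 at 6528230 to 6528984 had ratios of 0.50 and 0.60, that on chromosome 1 at 64672289 to 64673604 had 0.74 and 0.50, and that on chromosome 7 at 46005855 to 46006463 had 0.94 and 0.50. Just outside it, the fragments on chromosome 17 at 14430386 to 14430910 (0.819 and 0.499) and at 30384117 to 30385483 (0.564 and 0.498) and on chromosome 15 at 31571838 to 31572922 (0.957 and 0.499) missed on replicate 2 alone. These ratios differ by less than the spread between arrays, so membership at the edge is arbitrary.

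The fragments higher in PVH were bright in both nuclei. Their median PVH signal was 3362 on replicate 1 and 3879 on replicate 2, and their median ARH signal was 1848 and 2194. Over all fragments tested, the PVH medians were 718 and 1025 and the ARH medians 775 and 913. The median member thus stood at the 74.2nd percentile of PVH signals and at the 65.9th percentile of ARH signals. The median fragment lower in PVH stood at the 52.5th percentile of PVH signals and at the 63.8th percentile of ARH signals. A raised ARH signal was therefore not particular to members. In ARH, 177 of the 237 lay above the median fragment. The pattern is therefore mostly one of more signal in PVH on top of a sizeable ARH signal, and not of a fragment seen in one nucleus alone. Probes were kept only where 1 or more channels were well above background on each array, which in fragments selected for a higher PVH signal is nearly always the PVH channel. Among the probes kept, 8 members had one that missed this mark in ARH on an array.

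Across 8 equal classes of mean signal, the share of fragments that were members was 0.438%, 0.329% and 0.402% in the 3 dimmest classes. It was 0.657% and 1.10% in the next 2, 2.63% and 2.26% in the sixth and seventh, and 0.840% in the brightest. The sixth and seventh classes held 134 of the 237 members (56.5%) and 193 of the 501 fragments lower in PVH (38.5%). Lower fragments were spread more evenly, with shares from 1.24% to 3.54%. The brightest class behaved differently: 4.67% of its fragments were higher on replicate 1 and lower on replicate 2, that is, brighter in the Cy5 channel on both arrays. Its median log2 ratio was 0.36 on replicate 1 and -0.28 on replicate 2. In the seventh class these medians were 0.048 and -0.084, and in the sixth -0.18 and 0.018. The part of such offsets in the shares was not tested. Between the arrays, the signal selected on a single array was far apart: fragments at 0.5 or more had a median signal of 11828 on replicate 1 and of 854 on replicate 2, against 2705 for those that met the rule on both.

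**Figure D2:**
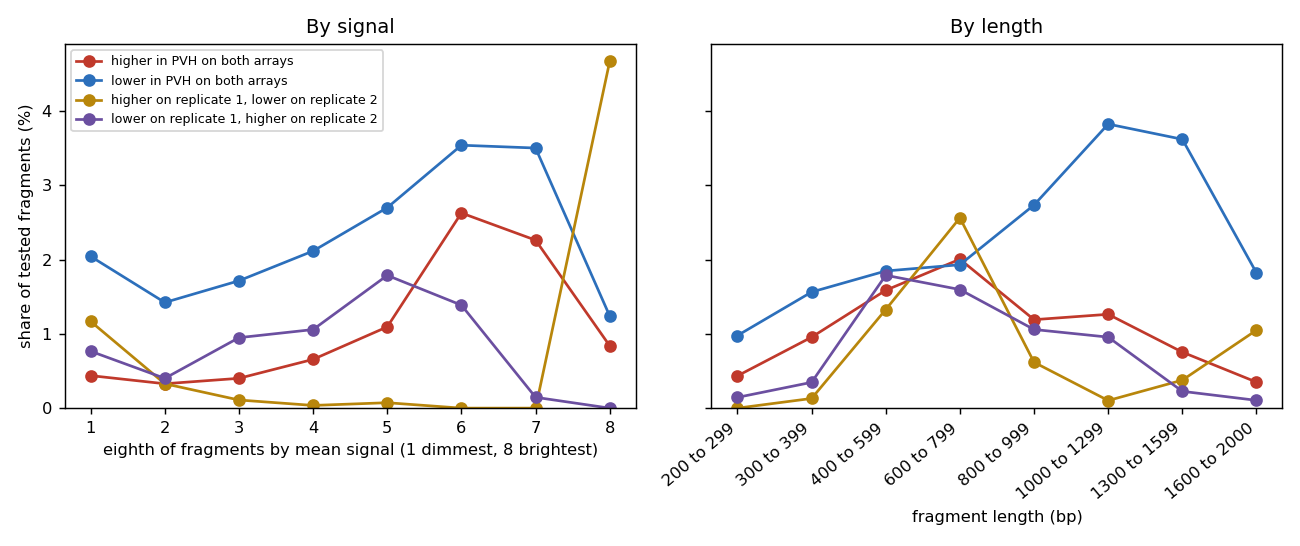
Share of the tested autosomal fragments (vertical, %) in each of 4 classes, by eighth of mean signal (left) and by fragment length in bp (right). The fragments higher in PVH on both arrays reach 2.63% in the sixth signal class and 2.01% from 600 bp to below 800 bp.

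The members were of middle length. Their median was 701 bp, with quartiles at 471 and 1042 bp and a range of 213 to 1994 bp, and the median over all tested fragments was 777 bp. Between 400 and 800 bp lay 109 members (46%), against 28.1% of all fragments tested. Only 12.7% of members exceeded 1300 bp, beside 25% of all fragments. The fragments lower in PVH leaned the other way, with a median of 1036 bp and 29.5% over 1300 bp. Signal also varied with length. Its median over all tested fragments was 1836 from 400 bp to below 600 bp, 3855 from there to below 800 bp, 3252 from there to below 1000 bp and 184 at 1600 to 2000 bp. Length and signal were therefore looked at together. Among fragments of above-median signal, members made up 1.90% of those under 600 bp, 1.82% of those from 600 bp to below 1300 bp and 0.496% of those of 1300 bp or more. Among fragments of below-median signal the same shares were 0.166%, 0.774% and 0.559%, with no excess at short lengths. Long fragments also had a median log2 ratio below 0 on both arrays (-0.26 and -0.043 from 1300 bp to below 1600 bp). When the running median over length was subtracted on each array, 193 of the 237 members remained among 238 fragments that met the rule, and their median length was 912.5 bp. The middle length of the members hence depends on whether this trend is left in.

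Site density was read from the fragments of the array, counted as other fragments of the deposited table with a midpoint within 10 kb (10000 bp) on either side. No other fragment lay within this distance for 119 of the 237 members (50.2%, exact 95% binomial interval 43.7 to 56.7%, counting error only). The share was 39.8% over all tested fragments, 40.9% for fragments lower in PVH, and 38.3% and 26.4% for the opposite classes that were higher on replicate 1 and on replicate 2. Among fragments of above-median signal, 2.24% of those that stood alone were members, against 1.32% of those with neighbours. At below-median signal the shares were 0.389% alone and 0.497% with neighbours. Members with a touching fragment, which shares a restriction site with them, numbered 83 (35.0%), against 41.3% of all tested. These counts see only sites that bound fragments of 200 to 2000 bp on the array.

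Although more of them stood alone, members that had a touching fragment tended to share their direction with it. A touching fragment that was itself tested was found in 92 member pairs, and 26 of these 92 partners (28.3%) were members too, against the background of 1.08%. Members that touch each other are each counted as the other's partner, and the other classes were counted in the same way. None of the 92 was lower in PVH on both arrays by the rule, as were 235 of 10028 partners over all touching pairs. At that background few would be met among 92, so their absence says little. The partners that the rule did not select were then looked at alone. In 66 pairs the touching fragment was not a member. Of these 66, 40 (60.6%, exact 95% binomial interval 47.8 to 72.4%, counting error only) were above 0 on both arrays. The share was 24% over all tested fragments and 26.6% over all touching pairs. Only 6 of the 66 were below 0 on both, beside 25.7% of all tested fragments and 23.7% of all touching pairs. The median ratio of the 66 was 0.17 on replicate 1 and 0.24 on replicate 2, and that of all touching pairs was -0.0012 and 0.023. Because a pair has a cut site in common, its fragments are not independent, and no test was made.

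The same counts were made in the other classes. Partners of the same class made up 72 of 235 (30.6%) next to fragments lower in PVH and 10 of 96 next to those higher on replicate 1 and lower on replicate 2, and there were none among 98 for the reverse pattern. Next to fragments lower in PVH, 87 of 163 touching fragments outside the class (53.4%) were below 0 on both arrays and 12 (7.36%) above 0. Next to fragments that were higher on replicate 1 and lower on replicate 2, 9 of 86 were above 0 on both arrays and 24 (27.9%) below 0. Next to those with the reverse pattern, 38 of 98 (38.8%) were above 0 on both. The same sign on both arrays was thus more frequent beside the like-signed classes than beside the opposite ones. The difference between 60.6% and 38.8% was not tested. These counts leave out the opposite classes' own pattern, with different signs on the arrays. How many of their neighbours took it was not counted. It is thus not shown that sharing a pattern with touching fragments is particular to the like-signed classes. Median ratios of the 86 neighbours were 0.015 on replicate 1 and -0.17 on replicate 2, and those of the 98 were 0.015 and 0.25. Beyond touching fragments the direction shared with members faded. Of 167 pairs within 10 kb that did not touch and were not members, 55 (32.9%) were above 0 on both arrays, against 26.5% of such pairs over all fragments. At 10 to 100 kb (100000 bp) it was 187 of 939 (19.9%), beside 21.6%.

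**Figure D3:**
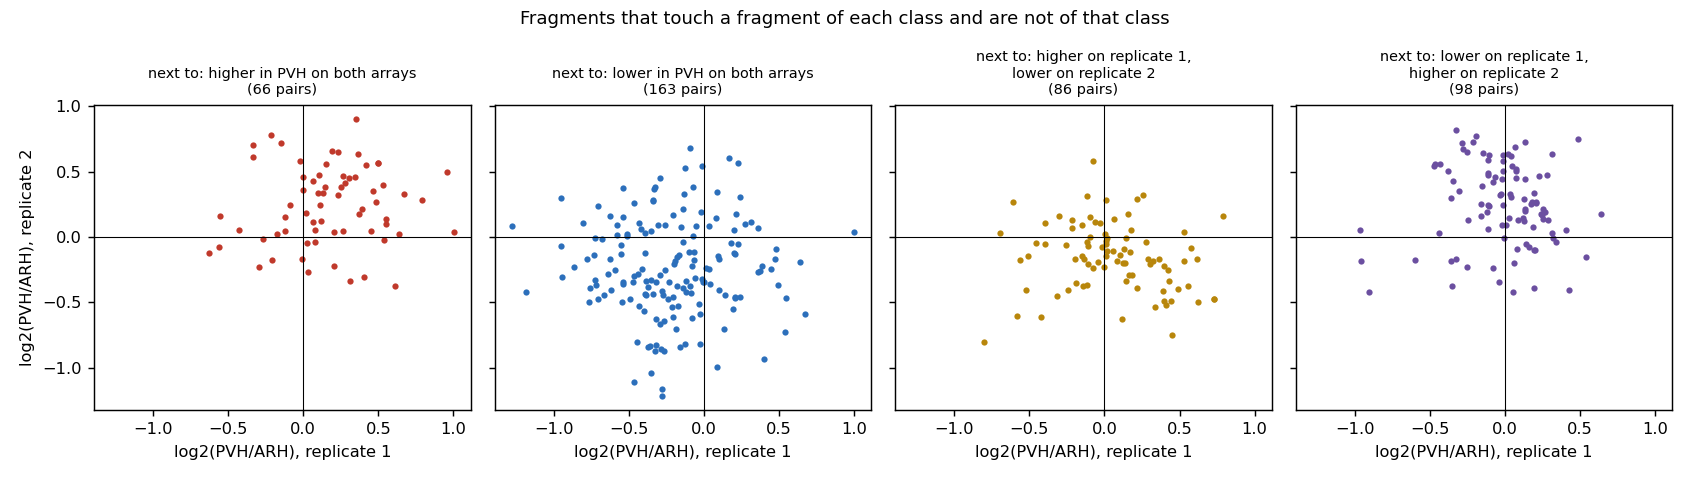
Log2 ratio of PVH over ARH on replicate 1 (horizontal) and replicate 2 (vertical) of fragments that touch a fragment of the class named above each panel and are not of that class themselves. Next to fragments higher in PVH on both arrays, 40 of 66 points lie in the upper right quadrant. Next to those higher on replicate 1 and lower on replicate 2, 9 of 86 do. The own quadrant of that class is the lower right, where points were not counted, so these numbers do not compare like with like.

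Members also formed runs, which include the touching members counted above. With gaps of up to 10 kb, 32 of the 237 (13.5%) fell into 15 runs, beside 84 of the 501 lower fragments (16.8%) in 37 runs and 2 of 178 fragments in 1 run for the class that was lower on replicate 1 and higher on replicate 2. The class that was higher on replicate 1 and lower on replicate 2 had 14 of 175 in 4 runs, 1 of which held 8 fragments. Only 2 of the 15 member runs held 3 fragments, and the others held 2.

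The run on chromosome 13 spans 3170 bp from 72423077 to 72426246 and consists of 3 touching members. The first, of 435 bp, had PVH signals of 3910 and 5026 on replicates 1 and 2 and ARH signals of 1355 and 1974, a log2 ratio of 1.44 ± 0.13 (SD, n = 2 arrays). The last, of 1499 bp and starting at 72424748, had 375 and 528 in PVH against 181 and 241 in ARH, at 1.09 ± 0.057. The PVH signals lay above the ARH signals without overlap in both. The fragment between them, of 1236 bp, was dim, with 90.4 and 92.8 in PVH and 23.5 and 28.9 in ARH. Its ratio of 1.81 ± 0.18 dropped to 0.74 after background correction by normexp and to 0.66 where loess followed, and 3 of its 4 probes were not well above background in ARH on an array. All 12 probes of the run were above 0.7 on both arrays, the lowest being 0.77 on replicate 1 and 0.74 on replicate 2. The next measured fragment, at 72427959 to 72428884, was at -0.20 and 0.55, and the one touching it, at 72428885 to 72429350, was at 0.36 and 0.26. The arrays thus took opposite directions in the nearer of these and the same direction, below 0.5, in the farther one.

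The run on chromosome 5 spans 3697 bp from 139791093 to 139794789, again with 3 touching members. The outer fragments had PVH signals of 446 and 416 (first) and 450 and 689 (last), against ARH signals of 282 and 262 and of 282 and 421. Their log2 ratios were 0.66 ± 0.0073 and 0.69 ± 0.028 (SD, n = 2 arrays), although a probe in the first read 0.30 and -0.019. The middle fragment, at 139792918 to 139793960, was at 1.11 ± 0.085, but the 3 probes kept did not act as one. A probe at 1959 bp from the start of the run read 2.33 and 2.48, and the other 2 read between 0.21 and 0.83. The first of these was not well above background in ARH on either array, and the ratio was 0.46 with such probes left out. A further member lay downstream at 139806902 to 139808359, beyond a fragment at -0.038 and 0.25. It rested on 2 probes, with 69.7 and 62.7 in PVH against 33.1 and 24.1 in ARH.

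**Figure D4:**
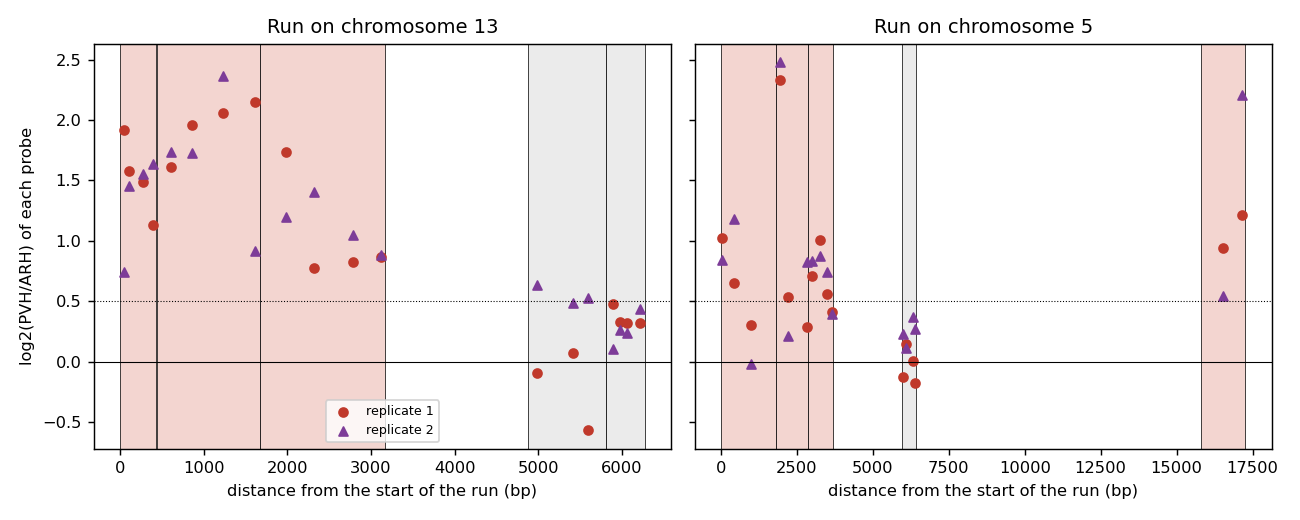
Log2 ratio of PVH over ARH of each probe on replicate 1 (circles) and replicate 2 (triangles) against the distance in bp from the start of the run on chromosome 13 (left) and chromosome 5 (right). Shaded spans are fragments, red for members and grey for other tested fragments; the 12 probes of the chromosome 13 run all lie above 0.7 on both arrays, and the grey fragments average between -0.20 and 0.55.

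The other runs described had 2 members each. On chromosome 7, touching members at 63633643 to 63633948 and 63633949 to 63634454 had PVH signals of 2283 and 2855 and of 1903 and 2488, against ARH signals of 1312 and 1585 and of 930 and 1262. Their ratios were 0.82 ± 0.035 and 1.01 ± 0.038 (SD, n = 2 arrays). Each ratio was nearly equal on the arrays, and each fragment holds 4 probes. On chromosome 3, the touching pair at 67800208 to 67800599 and 67800600 to 67800877 stood at 0.94 ± 0.41 and 0.98 ± 0.032. The first of this pair was the brighter, with 13979 and 12997 in PVH and 5959 and 8277 in ARH, and its ratio was 1.23 on replicate 1 and 0.65 on replicate 2.

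On chromosome 10, the members at 126927738 to 126928924 and 126931429 to 126931889 enclosed 2 fragments that were not members. The members stood at 0.93 ± 0.31 and 0.94 ± 0.073 (SD, n = 2 arrays). The enclosed fragment at 126928925 to 126930503 averaged -0.12 and 0.15, yet its probes split. The 2 probes nearest the left member averaged 0.69 and 1.01, and the 2 far probes averaged -0.94 and -0.71. Each side thus held its direction on both arrays, and the fragment mean hid it. Such a split was not general. Over 62 touching non-members with probes in both parts, the nearer probes had median ratios of 0.26 and 0.24 and the far probes 0.16 and 0.23. The nearer side was the higher one on both arrays in 13 pairs and the lower one in 6. In 3 pairs the nearer side reached 0.5 on both arrays, including this one and the pair on chromosome 15 just outside the threshold.

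Single fragments with a large ratio on both arrays included bright and dim ones. On chromosome 2, the fragment at 34804800 to 34805057 had 3347 and 4360 in PVH against 802 and 1149 in ARH. A second on that chromosome, at 172506068 to 172506846, was brighter, with 14959 and 13458 in PVH against 4123 and 4261 in ARH. On chromosome 6, the fragment at 33964954 to 33965368 had 6041 and 8629 in PVH against 1868 and 3003 in ARH. The PVH values of these fragments lay above the ARH values without overlap. Dimmer ones were found on chromosome 9 at 59937999 to 59939529, with 731 and 732 in PVH against 241 and 268 in ARH. The fragment on chromosome 14 at 121618163 to 121619568 had 313 and 486 in PVH against 97.6 and 131 in ARH. The smaller of the 2 log2 ratios of these fragments was between 1.45 and 1.92. For 224 of the 237 members, and for all 27 members named, both PVH signals exceeded both ARH signals, which holds for 9.03% of all tested fragments and follows in part from the rule.

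**Figure D5:**
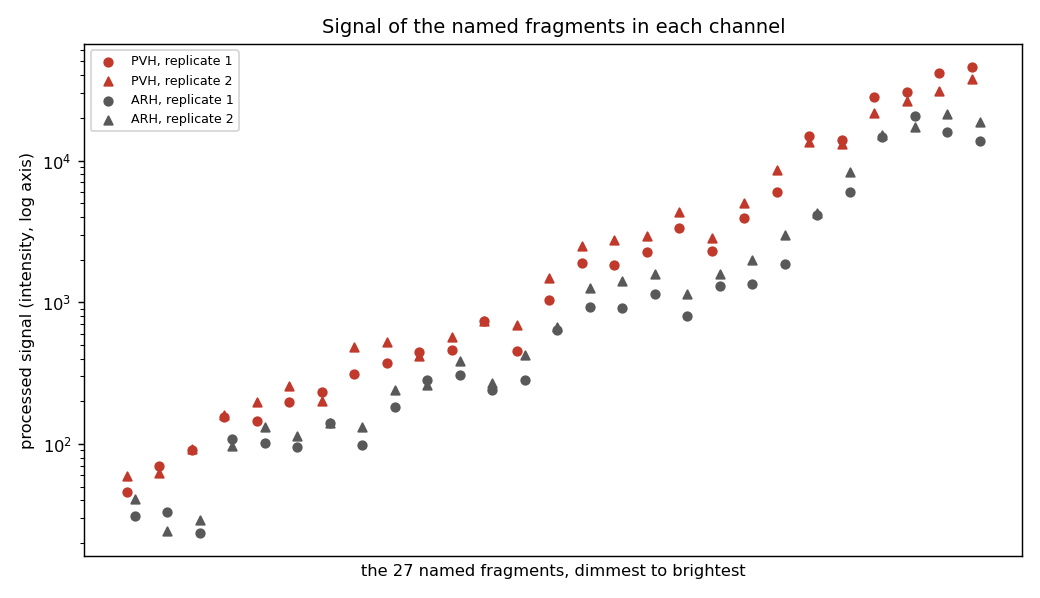
Processed signal (vertical, log axis) of the 27 named members in PVH (red, left of each pair) and ARH (grey) on replicate 1 (circles) and replicate 2 (triangles), from the dimmest to the brightest by mean signal. In each of the 27 both PVH points lie above both ARH points, over a signal range from 23.5 to 45513.

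The 3 brightest members were on chromosomes 19, 11 and 4. The fragment on chromosome 19 at 48120598 to 48121124 had 45513 and 37748 in PVH against 13718 and 18836 in ARH. That on chromosome 11 at 116247015 to 116247432 had 41434 and 30930 against 15941 and 21304. Their ratios were 1.73 and 1.00 and 1.38 and 0.54 on replicates 1 and 2, the larger on replicate 1, as in the bright fragments generally. That on chromosome 4 at 124509420 to 124510000 was even across arrays, at 0.56 and 0.60. The dimmest members were the chromosome 13 and chromosome 5 fragments near background described above and a fragment on chromosome 5 at 150154248 to 150155953. It had 45.4 and 59.8 in PVH against 30.8 and 40.8 in ARH, and its ratio of 0.56 was 0.20 with normexp and loess.

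By length, the shortest members were the chromosome 2 fragment of 258 bp at 34804800 and a fragment of 213 bp on the same chromosome at 71347240 to 71347452. This fragment of 213 bp had 458 and 571 in PVH and 305 and 387 in ARH, and a ratio of 0.57 ± 0.015 (SD, n = 2 arrays). The longest was on chromosome 10 at 60193865 to 60195858, of 1994 bp, with 155 and 160 in PVH against 109 and 96.5 in ARH.

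Probes within a member mostly took the same direction. The 237 members carried 878 probes, 4 in 177 fragments, 3 in 50 and 2 in 10. Of these probes, 873 were above 0 on both arrays and 651 (74.1%) reached 0.5 on both. This is a description, since the mean over the same probes chose the fragments. Every probe reached 0.5 on both arrays in 100 members (42.2%). With the probe of the largest ratio left out, 188 (79.3%) still met the rule. The same shares in the lower class were 46.7% and 78.4%. The SD between probes of a fragment had a median of 0.19 on replicate 1 and 0.14 on replicate 2 in members and of 0.19 and 0.15 over all fragments tested, so members were no more uneven than other fragments. Across a fragment the ratio changed little on replicate 2, and on replicate 1 it was lower near the ends than 200 to 300 bp inside. Probes centred within 100 bp of an end deviated from their fragment's mean by -0.080 on replicate 1 and -0.0026 on replicate 2 on average (SD between probes 0.21 and 0.15, 295 probes). Probes 200 to 300 bp inside deviated by 0.065 and -0.015. Over all fragments, the values within 100 bp of an end were -0.027 and 0.0098, and those 200 to 300 bp inside were 0.032 and -0.015.

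The probes themselves differed in length from the rest of the array. Probes were 45 to 60 bases long. Member probes averaged 53.9 bases, against 51.2 over all tested fragments. The shortest size of 45 bases made up 18.7% of member probes and 37.1% of all, and the longest size of 60 bases 37.6% and 22.5%. The lower class was like the members, at 53.7 bases on average with 18.4% at 45 bases. The classes of opposite direction leaned the other way, at 49.5 and 48.7 bases with 46.2% and 54.7% at 45 bases. Taken by probe length, 0.561% of 45-base probes and 1.86% of 60-base probes lay in a member. Probe length was not used by the rule. Fragments that agree on both arrays, in either direction, therefore carried longer probes than fragments of opposite direction, and the part of probe length in the ratios was not tested.

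Members lay on all 19 autosomes, with no chromosome holding most of them. Chromosome 11 had 22, chromosome 5 had 19 and chromosome 2 had 18, which is 1.12%, 1.06% and 1.04% of the fragments tested there. The highest share was on chromosome 13, with 16 of 774 fragments (2.07%), followed by chromosome 3 with 14 of 866 (1.62%) and chromosome 14 with 11 of 710 (1.55%). The lowest shares were 5 of 1067 on chromosome 17 (0.469%) and 6 of 1132 on chromosome 9 (0.530%). Chromosome 14 also had the highest share of fragments lower in PVH, at 3.94%, whereas chromosome 13 was at 1.94%. Of the 16 on chromosome 13, 3 belong to the run described above, so neighbouring fragments add to the chromosome counts.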

How the data were processed

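The files were 2 scanner files and a table of fragment values. Intensities were extracted by the authors with Agilent Feature Extraction 10.5.1.1, per the file headers, whereas the submitters' processing notes name 9.1.3.1. The deposited processed intensity had its background removed, was detrended across the array and was scaled by a linear dye factor, per the file headers. The deposited LogRatio, a log10 ratio of red over green, matched the ratio of processed intensities within 0.01 on the log2 scale for 98.7% and 98.8% of spots. The deposited table holds log2 values for 23738 intervals of 200 to 2000 bp. It followed the PVH over ARH ratios with r = 0.965 and 0.979 and slopes of 0.965 and 0.973. Its column medians were 0.046 and 0.018, and any centring by the authors stays unknown.

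Control spots (6110) and 79 outlier spots were left out. No spot was saturated. Of 90535 spots, 87109 lay wholly within an interval and 81364 of these were well above background in 1 or more channels on each array and were used. Each array's log2 ratios of PVH over ARH were centred on their median (0.00067 and 0.00015) and averaged per interval with at least 2 probes. The sign of replicate 2 was turned for the dye swap. Signals are geometric means over probes, and over arrays where no array is named. With 2 arrays precision is limited. Because the ratios themselves chose the fragments, no test of them was made and values are given as descriptions. Whether the pools of the arrays came from separate animals rests on the labels alone.

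Alternatives used limma 3.58.1 in R 4.3.3 (normexp with offset 50 on median spot and background signals, since the mean spot signal was not used here, and loess), running medians over 501 fragments, other filters and thresholds, and single arrays. The averaging was run on simulated ratios with known shifts well past the threshold and independent noise between probes. This checks the calculation only and says nothing about dye, signal or length trends in the data. Python 3.11.15 was used otherwise. The rule named members of runs (12 at most, runs with most members first and then those with the larger ratios), the 6 with the largest smaller ratio, the extremes of signal, length and probe number, and the 3 on each side of the threshold. All members have at most 4 probes, so the ratio decided among them. Members, measures and lists were chosen with earlier results of these data known. Touching fragments, their nearer and far probes, probe length and the fragments alone within 10 kb were examined after the data were seen.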

Additional observations from a re-analysis of the deposited data

How the results depend on the processing

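The count of 237 lay between 225 and 280 with normexp and loess, loess on the processed signals, no centring, either background filter, at least 3 or 1 probes, the median over probes, the deposited table, or a length or signal trend removed. These shared 181 to 237 of the 237 members. It was 149 with normexp alone, 345 at a log2 threshold of 0.4, 157 at 1.5-fold and 25 at 2-fold, and 1431 to 2109 on a single array. With normexp alone 145 of the 149 were members. In 6 of these settings together (both normexp settings, loess, the deposited table and both trends removed) 130 members (54.9%) met the rule each time, with a median signal of 3168 and 53.1% alone within 10 kb.

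The median length of 701 bp was 912.5 bp with the length trend removed and 570 to 703 bp on a single array. The median signal of 2705 was 3217 after normexp, 4795 where loess followed it, 4112 with loess alone, 2196 and 3900 with the length and signal trends removed, 1860 at 2-fold and 854 to 11828 on a single array. The median number of fragments within 10 kb was 0, but 1 with loess, at a threshold of 0.4 and with the signal trend removed, 0.5 with the length trend removed, and 1 on either array alone. The share alone, 50.2%, stayed between 48.4% and 52.4% in all settings with both arrays and was 33.3% to 44.4% on a single array, where it cannot be set against a class agreed on both. The share of touching non-members above 0 on both arrays, 60.6%, was 44.6% with the length trend removed and 50% to 68.2% otherwise. It has no value on a single array. The cause of these changes was not tested. The sizes of the opposite classes, 175 and 178, went both ways. They held 11 and 57 with normexp and loess, where 231 were higher and 427 lower in PVH. Loess on the processed signals gave 69 and 106, and removal of the signal trend 48 and 95. Without the loess step, normexp gave 255 and 73, beside 149 higher and 404 lower. Subtracting the length trend gave 113 and 294, beside 238 higher and 455 lower.

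For the 30 named fragments, none of 413 alternative ratios reversed, and 343 stayed within the SD between arrays. Part of these ratios could not have done otherwise. A single-array ratio always lies within this SD of the mean, and these fragments were above 0 on both arrays. Leaving out the centring or changing the lowest number of probes gave nearly or exactly the main ratio. The count of 343 is therefore no measure of stability. The median spot signal stood in for the planned mean spot signal. Fragments near background lost most under normexp, which limits what dim fragments show. No paired analysis was possible because no result here comes from a test, and each ratio is already paired within its array.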
